A study of Mus musculus with 14 samples.

Results

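The set described here comprised 39 classical type I interferon-stimulated antiviral genes, taken by gene symbol from a table of 24270 genes measured by RNA-seq in mouse lung. All 39 symbols were found, and all 39 passed the filter on low values. The libraries came from whole lungs of C57BL/6 mice aged 6 to 8 weeks at the start, in 4 groups: *Mcemp1*-/- mice given ovalbumin (OVA KO, n = 4), *Mcemp1*+/+ mice given ovalbumin (OVA WT, n = 4), *Mcemp1*-/- mice given saline (SAL KO, n = 3) and *Mcemp1*+/+ mice given saline (SAL WT, n = 3). Ovalbumin (OVA), an egg protein used to model allergic asthma, was injected intraperitoneally on days 1, 4 and 7 and then given intranasally once a week for 8 weeks, starting 5 days after the last injection. *Mcemp1*-/- mice carry a frameshift deletion of a few bases in exon 1, made with CRISPR-Cas9, so the gene is altered in every cell type and not only in mast cells, and saline stood in for OVA in the control mice of both genotypes.

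A pair of questions apply to this gene set: whether it changed with chronic OVA in each genotype, and whether it differed between genotypes under the same treatment. Values are the normalised read counts deposited for each library, which stood for an estimated 47.3 M to 67.1 M reads. *Mcemp1* itself (ENSMUSG00000013974) read 4.88, 3.73, 4.17 and 4.25 in OVA KO 1 to 4, against 20.1, 11.5, 12.8 and 14.6 in OVA WT 1 to 4. It read 3.499, 3.88 and 4.98 in SAL KO 1 to 3, against 11.95, 9.92 and 9.84 in SAL WT 1 to 3. Every *Mcemp1*-/- library was below every *Mcemp1*+/+ library, with log2 differences of -1.66 (SE 0.16, limma adjusted p = 0.00017) after OVA and -1.27 (SE 0.18, limma adjusted p = 0.012) after saline, so the labels matched the genotype. Surfactant and other alveolar epithelial markers summed to 11270 or more in every library, as lung tissue would give. The libraries OVA KO 3 (3374) and OVA WT 2 (2103) stood apart in the summed level of mucous secretory genes, which lay between 167 and 1033 elsewhere.

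Type I interferons bind a receptor shared by nearly all cells and act through the kinases JAK1 and TYK2 on the complex ISGF3, to which STAT2 and IRF9 belong. ISGF3 binds interferon-stimulated response elements in promoters and switches on genes that sense, degrade or trap viral material. In the lung these genes are known from respiratory virus infection, and interferon-γ, which binds a receptor of its own, switches on an overlapping set.

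The members were spread over the genome, with several sets of related genes close together (GRCm38, GENCODE M21). Gaps were measured between members only, and genes outside the set were not looked for within them. On chromosome 5, *Oas2*, *Oas3*, *Oas1g* and *Oas1a* lay in this order with gaps of 3.2, 98.5 and 8.6 kb. *Oasl2* and *Oasl1* lay 11.0 kb apart. On chromosome 19, *Ifit2*, *Ifit3*, *Ifit3b* and *Ifit1* lay in this order with gaps of 7.1, 19.2 and 27.5 kb. On chromosome 12, *Rsad2* and *Cmpk2* lay 12.8 kb apart on opposite strands. On chromosome 16, *Dtx3l* and *Parp9* overlapped, with *Parp14* 55.0 kb away, and *Mx1* and *Mx2* lay 72.4 kb apart. Reads of overlapping pairs such as *Parp9* and *Dtx3l*, *Irf9* and *Rnf31*, or *Irf7* and *Phrf1*, and of the near-identical copies *Ifit3* and *Ifit3b* or *Oas1a* and *Oas1g*, could have been split between genes by the counting.

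RefSeq promoters on GRCm38.p6, each running from 250 bases before to 50 bases after the start, were matched by symbol to 28 of the 39 members. The core of the response element was searched as GAAA, then any 2 bases, then GAAA, on either strand, with overlapping matches allowed. It was present in 14 of these 28 members (50%), against 527 of the 13858 tested genes with a promoter (3.8%). Counted by promoter, it was in 15 of 33 member promoters (45.5%), against 1131 of all 32851 promoters of the same length (3.4%). Of the members that rose in OVA WT lungs, 10 of 16 held the core (62.5%), and of those that did not pass the test 4 of 12 held it (33.3%). A match of letters is not by itself a binding site, and whether these shares differ was not tested. The sequences below, read 5′ to 3′ along the strand of the gene, are shown because they hold these matches in members whose values are given next. Capitals mark the cores, which run as TTTC, 2 bases, TTTC where the match is on the other strand.
Isg15 (chr4:156200865-156200906, minus strand): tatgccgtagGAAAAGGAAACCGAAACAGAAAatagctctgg
Oas1a (chr5:120907520-120907555, minus strand): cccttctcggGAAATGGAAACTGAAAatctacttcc
Oas1g (chr5:120887606-120887641, minus strand): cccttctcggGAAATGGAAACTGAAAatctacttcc
Oas3 (chr5:120777715-120777744, minus strand): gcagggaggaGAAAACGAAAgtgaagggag
Bst2 (chr8:71537577-71537612, minus strand): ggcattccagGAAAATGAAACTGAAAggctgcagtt
Ddx60 (chr8:61928024-61928087, plus strand): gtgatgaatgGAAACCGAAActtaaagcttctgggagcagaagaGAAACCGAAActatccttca
Stat2 (chr10:128270266-128270295, plus strand): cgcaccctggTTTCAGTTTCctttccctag
Ifit1 (chr19:34640775-34640823, plus strand): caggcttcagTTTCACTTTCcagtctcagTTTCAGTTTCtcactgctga
Ifit3 (chr19:34583363-34583426, plus strand): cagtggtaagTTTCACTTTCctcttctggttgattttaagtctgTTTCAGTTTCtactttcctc
Ifit3b (chr19:34607759-34607822, plus strand): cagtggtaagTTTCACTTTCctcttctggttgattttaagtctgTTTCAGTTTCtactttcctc

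*Isg15* held 3 overlapping cores, starting 78, 72 and 66 bases before its start site. *Ifit1*, *Ifit3*, *Ifit3b*, *Ddx60*, *Oas1a*, *Oas1g* and *Bst2* each held 2. The runs of *Ifit3* and *Ifit3b* were identical over 64 bases and those of *Oas1a* and *Oas1g* over 36 bases. Single cores were also found in *Ifih1*, *Eif2ak2*, *Rsad2* and, in both of its promoters, *Trim30a*. These letters were not in the promoter windows of *Irf9*, *Irf7*, *Oasl1*, *Oasl2*, *Ifit2*, *Herc6*, *Cmpk2*, *Isg20*, *Samd9l*, *Dtx3l*, *Ifi44*, *Ifi35*, *Xaf1* or *Lgals3bp*.

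Chronic OVA raised most of the set in *Mcemp1*+/+ lungs. Between OVA WT and SAL WT lungs, 22 of the 39 members rose and 0 fell at a limma adjusted p under 0.05, where 4.36% of all 22828 genes tested rose and 7.45% fell. The largest increases that passed were those of *Zbp1*, *Ifit1*, *Oas3*, *Oas1g*, *Isg15*, *Oas1a* and *Oas2*, each above 1 on the log2 scale. The median log2 change of the members was 0.64, with a range of -0.34 to 1.67, and the median over all genes was 0.0056. For 24 members every OVA WT library was above every SAL WT library (10.3% of all genes did so), and for 1 member, *Isg20*, every OVA WT library was below (12.6% of all genes). Without the library SAL WT 2, 14 members passed the test. When the columns were scaled to equal totals the median of all genes moved to -0.17 and that of the members to 0.41. With that scaling 15 members rose while *Isg20*, a nuclease that degrades RNA, fell by 0.56 (limma adjusted p = 0.044). Among all genes 467 rose and 4340 fell. The calls lost under this scaling were those of *Dhx58*, *Ddx60*, *Eif2ak2*, *Parp9*, *Parp14*, *Ifi44* and *Rtp4*, with limma adjusted p values of 0.054 to 0.105.

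**Figure D1:**
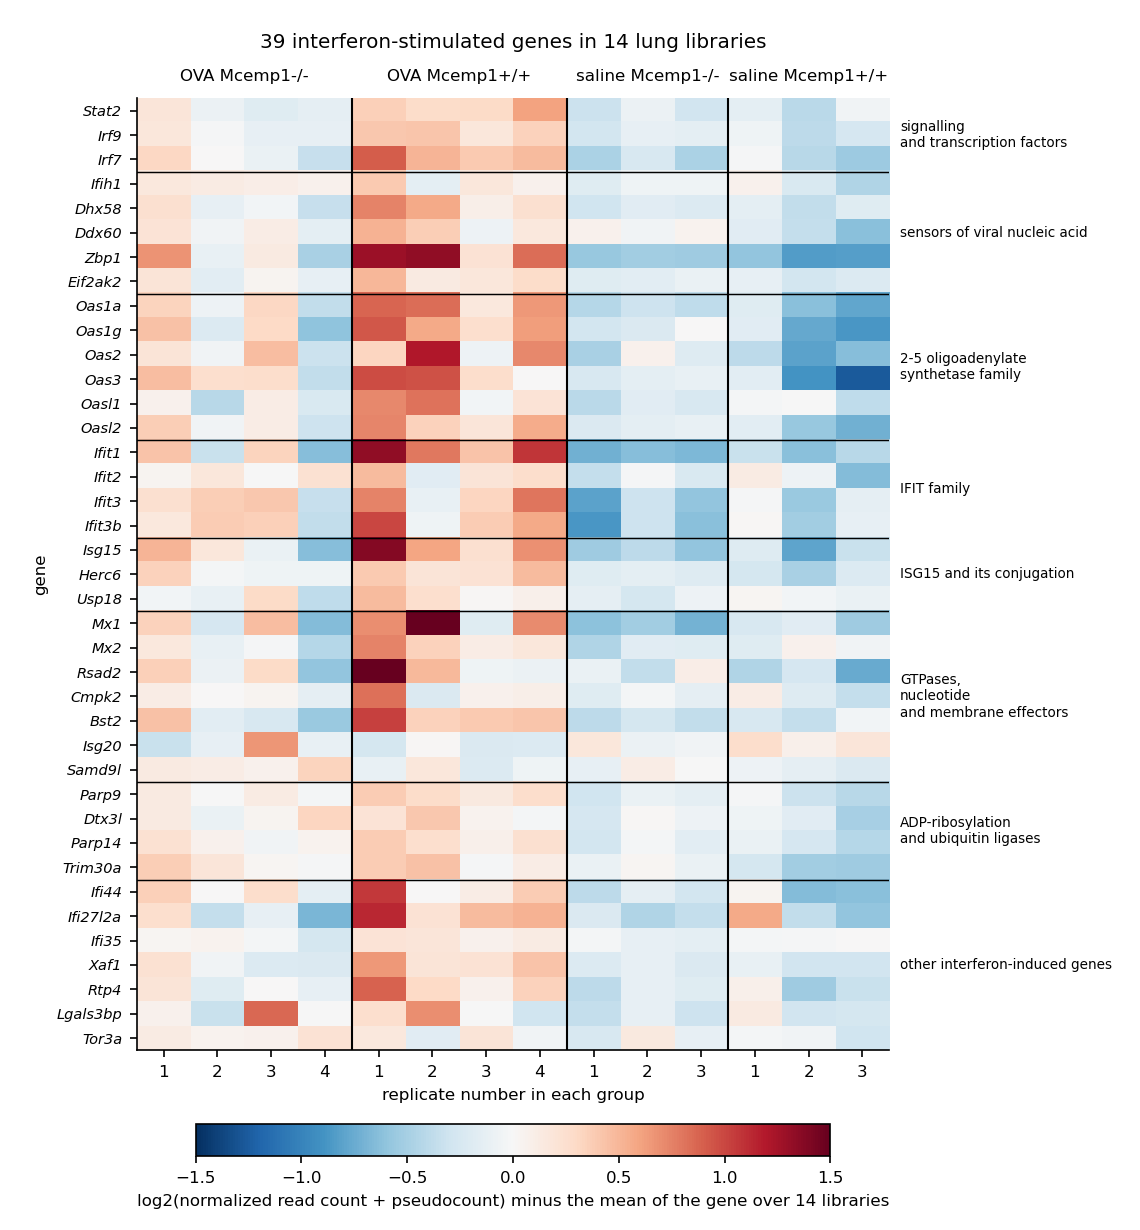
Heat map of the 39 members (rows, ordered by role) in the 14 libraries (columns: OVA KO, OVA WT, SAL KO, SAL WT). Colour gives the log2 value of each library minus the mean over all 14 libraries for that gene, limited at 1.5 in either direction. The 4 OVA WT columns are mostly above the mean of the row, with OVA WT 1 the highest of its group for 25 members, and among OVA KO columns the highest values are mostly in OVA KO 1.

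All 3 signalling members rose in OVA WT lungs. *Irf7*, the transcription factor that amplifies interferon production, read 21.8, 17.6, 16.2 and 13.7 in OVA KO 1 to 4, against 12.5, 14.8 and 12.4 in SAL KO 1 to 3. It read 33.3, 25.1, 23.1 and 24.6 in OVA WT 1 to 4, against 17.2, 12.9 and 11.8 in SAL WT 1 to 3. The WT groups did not overlap (log2 change 0.90, SE 0.17, limma adjusted p = 0.0040), whereas OVA KO 4 lay inside the SAL KO range. *Stat2* averaged 83.0 ± 9.27 in OVA WT lungs and 55.3 ± 6.69 in SAL WT lungs (SD, n = 4 and 3), and *Irf9* averaged 57.3 ± 4.33 and 38.5 ± 4.51 in these groups, with no overlap for either. Both encode ISGF3 subunits, and their log2 changes were 0.17 and 0.16 in KO lungs, neither of which passed, and 0.58 (SE 0.11) and 0.57 (SE 0.10) in WT lungs.

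Of the 5 sensors of viral nucleic acid, 4 rose in OVA WT lungs. *Zbp1*, which binds Z-form nucleic acid and can start necroptosis, had the largest change of the set. It read 15.6, 8.82, 10.5 and 6.68 in OVA KO 1 to 4, against 6.30, 6.52 and 6.46 in SAL KO 1 to 3. It read 23.9, 24.8, 11.2 and 17.4 in OVA WT 1 to 4, against 6.16, 5.14 and 5.17 in SAL WT 1 to 3. Every OVA WT library was above every SAL WT library (log2 change 1.67, SE 0.27, limma adjusted p = 0.0017), and OVA KO 4 was only just above the SAL KO libraries (log2 change for the KO groups 0.59, SE 0.27, limma adjusted p = 0.43). *Eif2ak2*, encoding the kinase PKR that halts translation on double-stranded RNA, *Ddx60*, a helicase, and *Dhx58*, encoding the RIG-I-like receptor LGP2, rose by log2 changes of 0.47, 0.62 and 0.64. *Ifih1*, encoding the double-stranded RNA sensor MDA5, did not pass: it read 39.9, 27.5, 34.3 and 31.9 in OVA WT 1 to 4, against 31.7, 25.9 and 21.98 in SAL WT 1 to 3, and these groups overlapped (log2 change 0.33, SE 0.12, limma adjusted p = 0.10).

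The oligoadenylate synthetase family had the highest median change of the 8 role groups in WT lungs, with 5 of 6 genes rising and a median log2 change of 1.16. Most of these enzymes make 2-5A, a second messenger of the antiviral response. *Oas3*, the largest of them, read 5.46, 4.66, 4.71 and 2.85 in OVA KO 1 to 4, against 3.16, 3.43 and 3.52 in SAL KO 1 to 3. It read 8.04, 7.92, 4.72 and 3.86 in OVA WT 1 to 4, against 3.40, 1.83 and 1.30 in SAL WT 1 to 3. The WT groups did not overlap (log2 change 1.32, SE 0.29, limma adjusted p = 0.011), and OVA KO 4 was below all 3 SAL KO libraries.

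*Oas1a*, a 2-5A synthetase, read 17.6, 17.2, 10.5 and 15.0 in OVA WT 1 to 4, against 8.22, 5.90 and 5.27 in SAL WT 1 to 3 (log2 change 1.16, SE 0.20, limma adjusted p = 0.0031). Its neighbour and near copy *Oas1g* read 5.31, 4.05, 3.15 and 4.21 in OVA WT 1 to 4, against 2.21, 1.29 and 1.16 in SAL WT 1 to 3 (log2 change 1.20, SE 0.25, limma adjusted p = 0.0075). Both pairs of groups were apart. *Oas2*, a further 2-5A synthetase, read 23.2, 42.9, 17.4 and 30.7 in OVA WT 1 to 4, against 13.9, 10.3 and 11.7 in SAL WT 1 to 3 (log2 change 1.15, SE 0.26, limma adjusted p = 0.012), with OVA WT 2 the highest and no overlap.

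*Oasl2*, an OAS-like protein with ubiquitin-like domains, read 99.8, 76.2, 68.3 and 88.1 in OVA WT 1 to 4, against 53.7, 40.3 and 36.3 in SAL WT 1 to 3 (log2 change 0.93, SE 0.17, limma adjusted p = 0.0034). Its libraries did not overlap. *Oasl1*, which represses translation of *Irf7* mRNA in mice, was the family member that did not pass, with 4.71, 5.09, 2.57 and 3.17 in OVA WT 1 to 4, against 2.61, 2.66 and 1.93 in SAL WT 1 to 3 (log2 change 0.56, SE 0.21, limma adjusted p = 0.096). OVA WT 3 lay inside the saline range.

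In KO lungs *Oas1a* read 11.98, 8.87, 11.8 and 7.14 in OVA KO 1 to 4, against 6.86, 7.47 and 7.12 in SAL KO 1 to 3. *Oas2* read 21.1, 17.8, 25.5 and 14.6 in OVA KO 1 to 4, against 13.003, 19.3 and 16.1 in SAL KO 1 to 3. *Oasl2* read 77.3, 57.9, 64.8 and 48.2 in OVA KO 1 to 4, against 51.4, 53.97 and 55.6 in SAL KO 1 to 3. In all 3 genes OVA KO 4 was within or below the saline range while OVA KO 1 and OVA KO 3 were above it, and the groups overlapped. The 6 log2 changes of the family with OVA in KO lungs lay between 0.14 and 0.42, and none passed.

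In the IFIT family, whose proteins bind foreign RNA ends and block their translation, 1 of 4 genes passed in WT lungs. *Ifit1* read 37.5, 22.02, 35.2 and 17.8 in OVA KO 1 to 4, against 16.8, 17.8 and 17.2 in SAL KO 1 to 3. It read 70.6, 48.7, 37.5 and 58.9 in OVA WT 1 to 4, against 22.1, 17.9 and 20.7 in SAL WT 1 to 3. The WT groups were far apart (log2 change 1.36, SE 0.24, limma adjusted p = 0.0034), while OVA KO 4 was level with the saline libraries (log2 change for the KO groups 0.62, SE 0.24, limma adjusted p = 0.34).

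*Ifit3b* and *Ifit3* had nearly the same log2 change in both genotypes. *Ifit3b*, the largest change of the family that did not pass, read 14.4, 16.8, 16.5 and 9.80 in OVA KO 1 to 4, against 6.76, 10.2 and 8.13 in SAL KO 1 to 3. It read 26.1, 12.2, 16.7 and 19.3 in OVA WT 1 to 4, against 12.99, 8.77 and 11.7 in SAL WT 1 to 3. One library of each OVA group, OVA KO 4 and OVA WT 2, fell within its saline range. The log2 changes of *Ifit3b* were 0.73 (SE 0.24, limma adjusted p = 0.26) in KO and 0.68 (SE 0.24, limma adjusted p = 0.090) in WT lungs, and those of *Ifit3* were 0.74 and 0.67. The difference of these responses, KO minus WT, was 0.06 for *Ifit3b* and 0.07 for *Ifit3*, and its SE of 0.34 and 0.33 leaves room for a difference of either sign.

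Of ISG15, a ubiquitin-like protein, and the genes of its conjugation, 2 of 3 rose in WT lungs. *Isg15* read 11.4, 8.90, 7.27 and 4.85 in OVA KO 1 to 4, against 5.23, 5.83 and 5.00 in SAL KO 1 to 3. It read 21.2, 12.1, 9.32 and 12.8 in OVA WT 1 to 4, against 6.80, 4.29 and 6.12 in SAL WT 1 to 3. The WT groups were apart (log2 change 1.16, SE 0.27, limma adjusted p = 0.016) and OVA KO 4 was below every SAL KO library. *Herc6*, the main ISG15 ligase of mice, rose by 0.64 on the log2 scale (SE 0.11, limma adjusted p = 0.0025). *Usp18*, which removes ISG15 and dampens receptor signalling, read 23.2, 19.96, 16.9 and 17.6 in OVA WT 1 to 4, against 16.9, 16.2 and 15.4 in SAL WT 1 to 3, an estimate of 0.25 on the log2 scale (SE 0.14, limma adjusted p = 0.29). OVA WT 3 was at the level of SAL WT 1.

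Among the 7 GTPases and nucleotide or membrane effectors, only *Bst2*, encoding tetherin, which holds budding virions at the cell surface, passed in WT lungs. It read 68.6, 45.3, 42.8 and 34.0 in OVA KO 1 to 4, against 38.4, 42.0 and 38.8 in SAL KO 1 to 3. It read 103, 64.1, 66.1 and 67.4 in OVA WT 1 to 4, against 42.7, 39.1 and 48.8 in SAL WT 1 to 3. OVA WT 1 was far above the other OVA WT libraries, all OVA WT libraries were above saline (log2 change 0.76, SE 0.20, limma adjusted p = 0.030), and OVA KO 4 was below all SAL KO libraries. *Mx1*, a dynamin-like GTPase that blocks influenza virus and is defective in C57BL/6 mice, read 8.10, 16.6, 4.18 and 8.18 in OVA WT 1 to 4, against 3.98, 4.21 and 3.18 in SAL WT 1 to 3. OVA WT 2 was the highest and OVA WT 3 lay within the saline range (log2 change 1.04, SE 0.35, limma adjusted p = 0.071). *Rsad2*, encoding viperin, had 0.95 on the log2 scale (SE 0.34, limma adjusted p = 0.088), *Mx2*, which GENCODE lists as a polymorphic pseudogene, 0.40, *Cmpk2*, a mitochondrial nucleotide kinase, 0.34, *Samd9l* 0.09 and *Isg20* -0.34, and none of these passed.

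**Figure D2:**
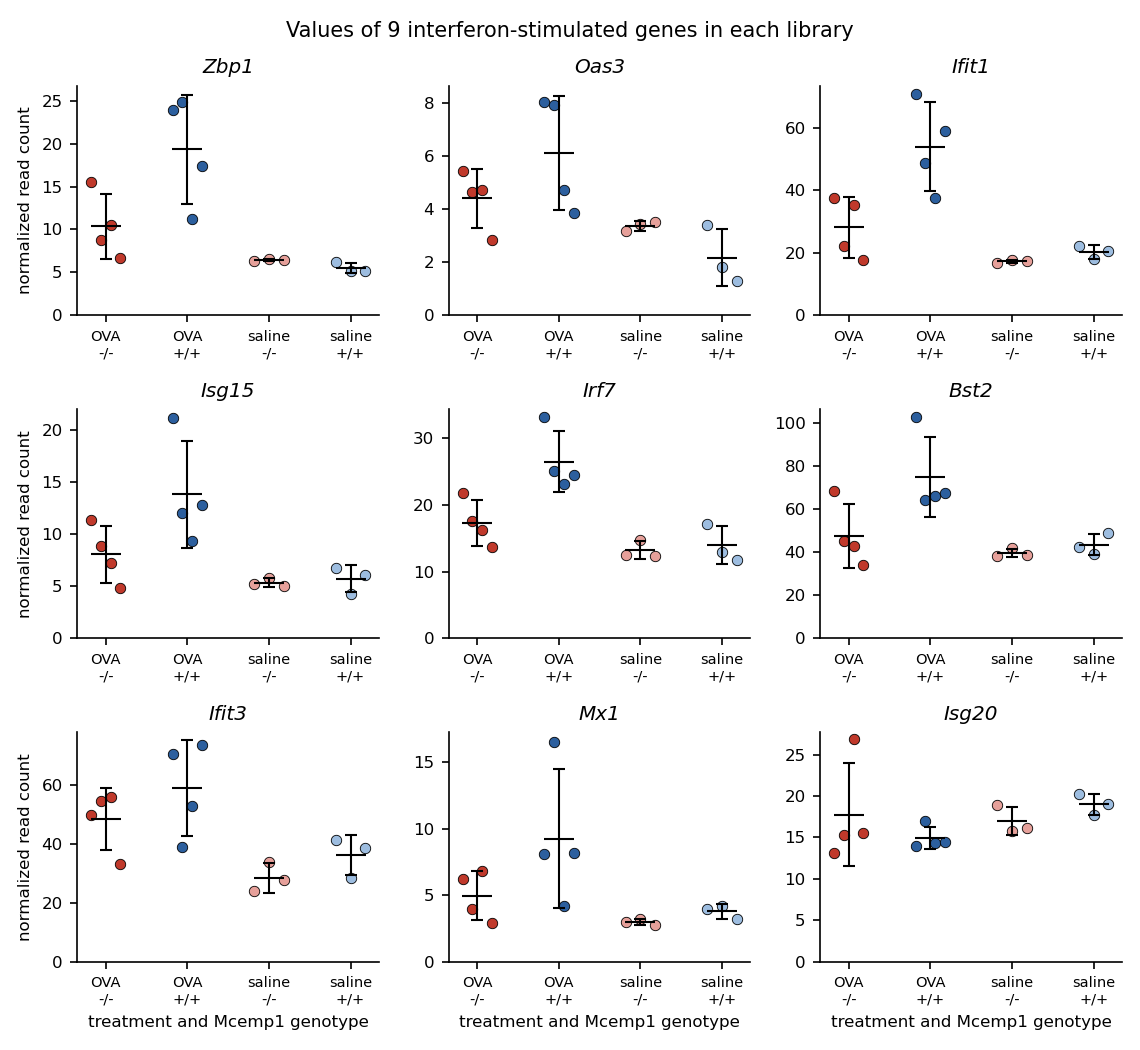
Normalised read counts of 9 members (linear axes starting at 0) in each library of the 4 groups, OVA KO, OVA WT, SAL KO and SAL WT. Points are libraries and bars show the mean and SD. For *Zbp1*, *Oas3*, *Ifit1*, *Isg15*, *Irf7* and *Bst2* every OVA WT point is above every SAL WT point, for *Ifit3* and *Mx1* the WT groups overlap, and for *Isg20* all OVA WT points are below the SAL WT points.

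Of the 4 ADP-ribosylation and ubiquitin ligase genes, 3 rose in WT lungs. *Trim30a*, a RING-finger E3 ligase of mice, read 62.5, 54.8, 49.0 and 47.7 in OVA KO 1 to 4, against 44.9, 49.1 and 44.7 in SAL KO 1 to 3. It read 63.0, 65.6, 47.4 and 51.9 in OVA WT 1 to 4, against 40.02, 33.5 and 33.1 in SAL WT 1 to 3. The WT groups did not overlap (log2 change 0.67, SE 0.12, limma adjusted p = 0.0042) and 2 of the 4 OVA KO libraries lay within the SAL KO range. *Parp9* and *Parp14*, members of the ADP-ribosyltransferase family, rose by log2 changes of 0.52 and 0.49. *Dtx3l*, the E3 ligase partner of PARP9, read 30.8, 35.5, 27.8 and 26.1 in OVA WT 1 to 4, against 25.5, 23.7 and 18.8 in SAL WT 1 to 3, without overlap but short of the threshold (log2 change 0.40, SE 0.13, limma adjusted p = 0.064).

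Of the remaining 7 members, *Ifi44*, *Rtp4* and *Xaf1* rose in WT lungs. *Ifi44* read 30.2, 14.3, 15.3 and 18.6 in OVA WT 1 to 4, against 14.6, 8.84 and 8.98 in SAL WT 1 to 3 (log2 change 0.80, SE 0.23, limma adjusted p = 0.041). OVA WT 2 lay just below SAL WT 1. *Xaf1*, a pro-apoptotic antagonist of XIAP, and *Rtp4*, a receptor transporter, rose by log2 changes of 0.60 and 0.66. *Ifi27l2a*, a mitochondrial ISG12 protein and the most abundant member per kilobase, read 96.5, 51.1, 61.2 and 63.0 in OVA WT 1 to 4, against 65.0, 33.7 and 29.0 in SAL WT 1 to 3, and the overlap came from SAL WT 1 (log2 change 0.72, SE 0.28, limma adjusted p = 0.11). *Ifi35*, *Tor3a* and *Lgals3bp* had log2 changes of 0.16, 0.16 and 0.30 and did not pass.

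Some of the 22 calls in WT lungs rested on 1 library. Without SAL WT 2 the calls of *Dhx58*, *Ddx60*, *Oas2*, *Oas3*, *Isg15*, *Bst2*, *Ifi44* and *Rtp4* were lost, with limma adjusted p values of 0.051 to 0.16. Without SAL WT 3 those of *Dhx58*, *Ddx60*, *Oas3*, *Bst2*, *Ifi44* and *Rtp4* were lost, and without OVA WT 1 those of *Dhx58*, *Bst2*, *Ifi44* and *Rtp4*. *Bst2* also lost its call without SAL WT 1, and *Ifi44* and *Rtp4* lost theirs without OVA WT 4. *Ifi44* also lost its call without OVA KO 2 or any 1 of the SAL KO libraries. KO libraries enter these WT calls through what the fit shares: the estimate of spread, the filter on low values and the pseudocount. Without OVA WT 2, *Ifih1*, *Ifit3* and *Ifit3b* gained a call, as did *Oasl1* and *Mx1* without OVA WT 3, *Dtx3l* without OVA WT 4, *Ifih1* and *Ifi27l2a* without SAL WT 1, and *Isg20*, as lower, without OVA KO 3.

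In *Mcemp1*-/- lungs the log2 changes with OVA were positive but small against the spread between libraries. Between OVA KO and SAL KO lungs 0 of 39 members passed with limma, where 0.21% of all genes rose. An unadjusted p under 0.05 was found for 7 members, and the all-gene share at that level is not given here. All 39 log2 changes were positive, with a median of 0.21 and a range of 0.01 to 0.74, against an all-gene median of -0.0086. After scaling to equal totals 36 were positive, and *Ddx60*, *Isg20* and *Ifi35* were not. For 5 members, *Ifih1*, *Zbp1*, *Ifit2*, *Herc6* and *Parp9*, every OVA KO library was above every SAL KO library, and 5.75% of all genes did so. The IFIT family was the role group with the largest median in KO lungs, at 0.68, beside 0.67 in WT lungs. These medians do not hold gene by gene. *Ifit1* had a smaller log2 change in KO than in WT lungs, as given above, and *Ifit3* and *Ifit3b* are near copies. The medians of the other 7 role groups in KO lungs lay between 0.15 and 0.23.

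**Figure D3:**
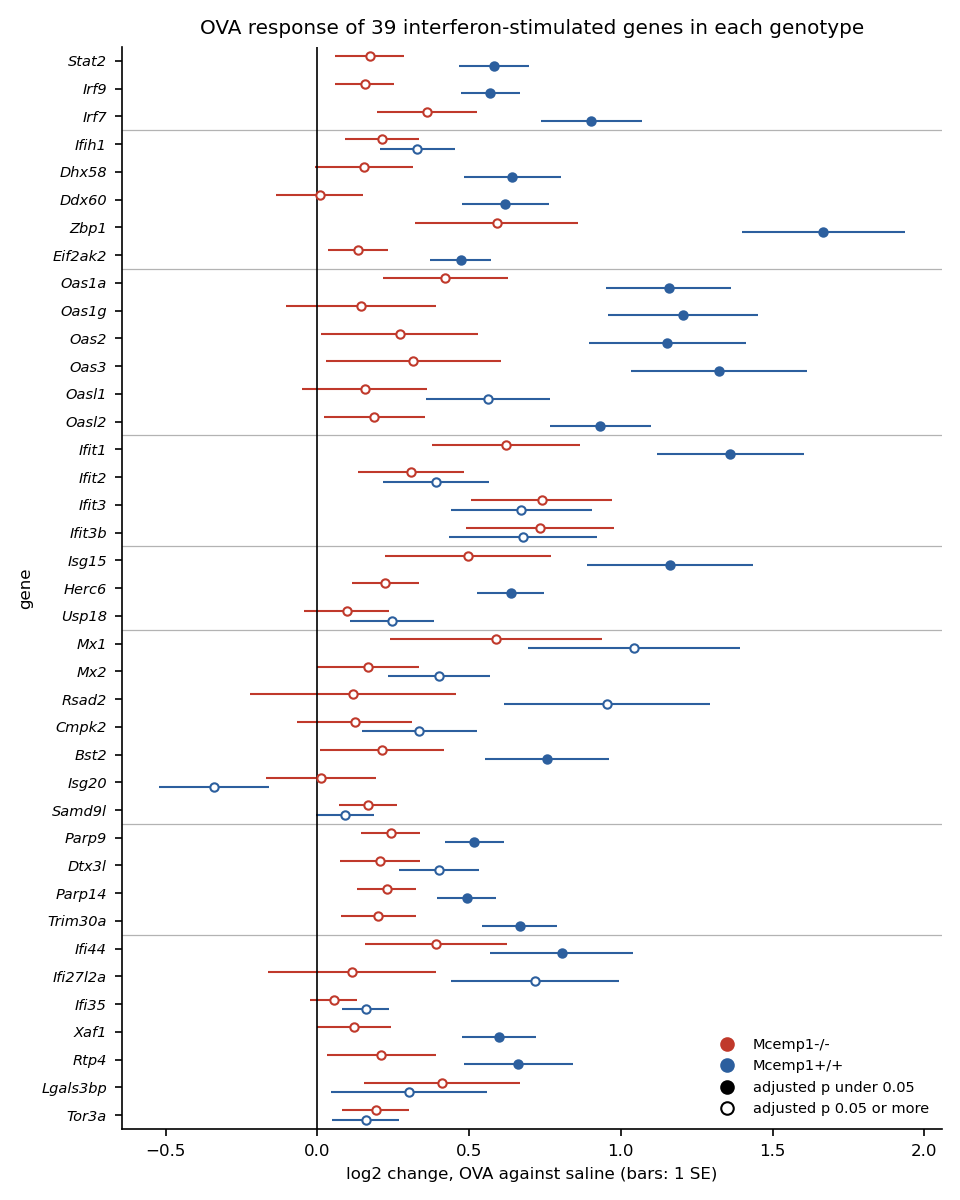
Log2 change with OVA against saline for each of the 39 members, with 1 SE either side, in *Mcemp1*-/- lungs (red) and *Mcemp1*+/+ lungs (blue). Filled points passed a limma adjusted p of 0.05. Filled points are 0 members in KO lungs and 22 in WT lungs, and the 2 estimates lie close together for *Ifit3* and *Ifit3b*.

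The response to OVA in each genotype does not by itself say that the responses differed, and the difference was tested as an interaction. The difference of the log2 changes, KO minus WT, was negative for 33 of 39 members, with a median of -0.41 and a range of -1.08 to 0.35. None passed with limma (0% of all genes were lower), and the smallest adjusted p was 0.64. An unadjusted p under 0.05 was found for 15, and the all-gene share at that level is not given here. *Zbp1* had the largest difference, -1.08 (95% interval -1.89 to -0.26), followed by *Oas1g* with -1.06 (95% interval -1.81 to -0.31). *Ddx60* had -0.61 (95% interval -1.05 to -0.18) and *Oasl2* -0.75 (95% interval -1.25 to -0.24).

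After OVA most members had lower mean values in KO than in WT lungs, and none of these differences passed in the fit described here when all libraries were used. With limma 0 of 39 members passed, where 0.206% of all genes were lower at the same adjusted threshold. An unadjusted p under 0.05 was found for 22 members, a count that cannot be weighed without the all-gene share, which is not given here. The log2 difference, KO minus WT, was negative for 36 members, the exceptions being *Isg20*, *Samd9l* and *Tor3a*, with a median of -0.36 and a range of -0.96 to 0.21, against an all-gene median of 0.0095. After scaling to equal totals 31 were negative and the median was -0.24, while the all-gene median moved to 0.11. For 6 members, *Stat2*, *Irf9*, *Irf7*, *Ifit1*, *Parp9* and *Ifi35*, every OVA KO library was below every OVA WT library, and 4.04% of all genes were so placed. In 4 of these cases the groups nearly touched. *Ifit1* was 37.5 in both OVA KO 1 and OVA WT 3 to 3 significant digits. *Irf9* reached 51.0 in OVA KO lungs and began at 51.1 in OVA WT lungs. *Parp9* reached 44.2 in OVA KO lungs and began at 44.4 in OVA WT lungs. *Ifi35*, an interferon-induced leucine zipper protein, reached 37.8 in OVA KO lungs and began at 38.0 in OVA WT lungs.

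The smallest adjusted p values were those of *Ifit1* (log2 difference -0.96, 95% interval -1.44 to -0.47, limma adjusted p = 0.081) and the 3 signalling members. *Stat2* read 71.6, 59.4, 55.6 and 57.4 in OVA KO 1 to 4, against 81.5, 76.9, 77.1 and 96.5 in OVA WT 1 to 4. *Irf9* read 51.0, 44.5, 41.3 and 41.3 in OVA KO 1 to 4, against 59.95, 60.5, 51.1 and 57.5 in OVA WT 1 to 4. In both genes OVA KO 1 was the highest OVA KO library and the closest to the OVA WT range. *Stat2* had -0.44 (95% interval -0.67 to -0.21, limma adjusted p = 0.082), *Irf9* -0.36 (95% interval -0.56 to -0.17, limma adjusted p = 0.088) and *Irf7* -0.61 (95% interval -0.94 to -0.27, limma adjusted p = 0.092). All 3 were without overlap, *Irf9* by the narrow gap given above.

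Leaving out the library OVA KO 1 changed the call. This library held the highest OVA KO value for 26 of 39 members, and for 26.6% of all genes. Without it 10 members were lower in KO lungs at a limma adjusted p under 0.05, where 2.51% of all genes were lower, and 35 of 39 log2 differences were negative, with a median of -0.43. The 10 were *Ifit1* (-1.12), *Zbp1* (-1.07), *Bst2* (-0.86), *Irf7* (-0.72), *Dhx58* (-0.59), *Xaf1* (-0.53), *Stat2* (-0.52), *Irf9* (-0.43), *Herc6* (-0.37) and *Eif2ak2* (-0.35), with adjusted p values of 0.014 to 0.043. All 10 had also risen with OVA in WT lungs, in a comparison that shares the OVA WT libraries. Among all genes 571 were lower without this library, against 47 with it, so calls were gained outside the set too. No other omission of a single library gave a call for a member in this comparison. With all libraries kept, *Ifit1* passed with library weights (limma adjusted p = 0.044).

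**Figure D4:**
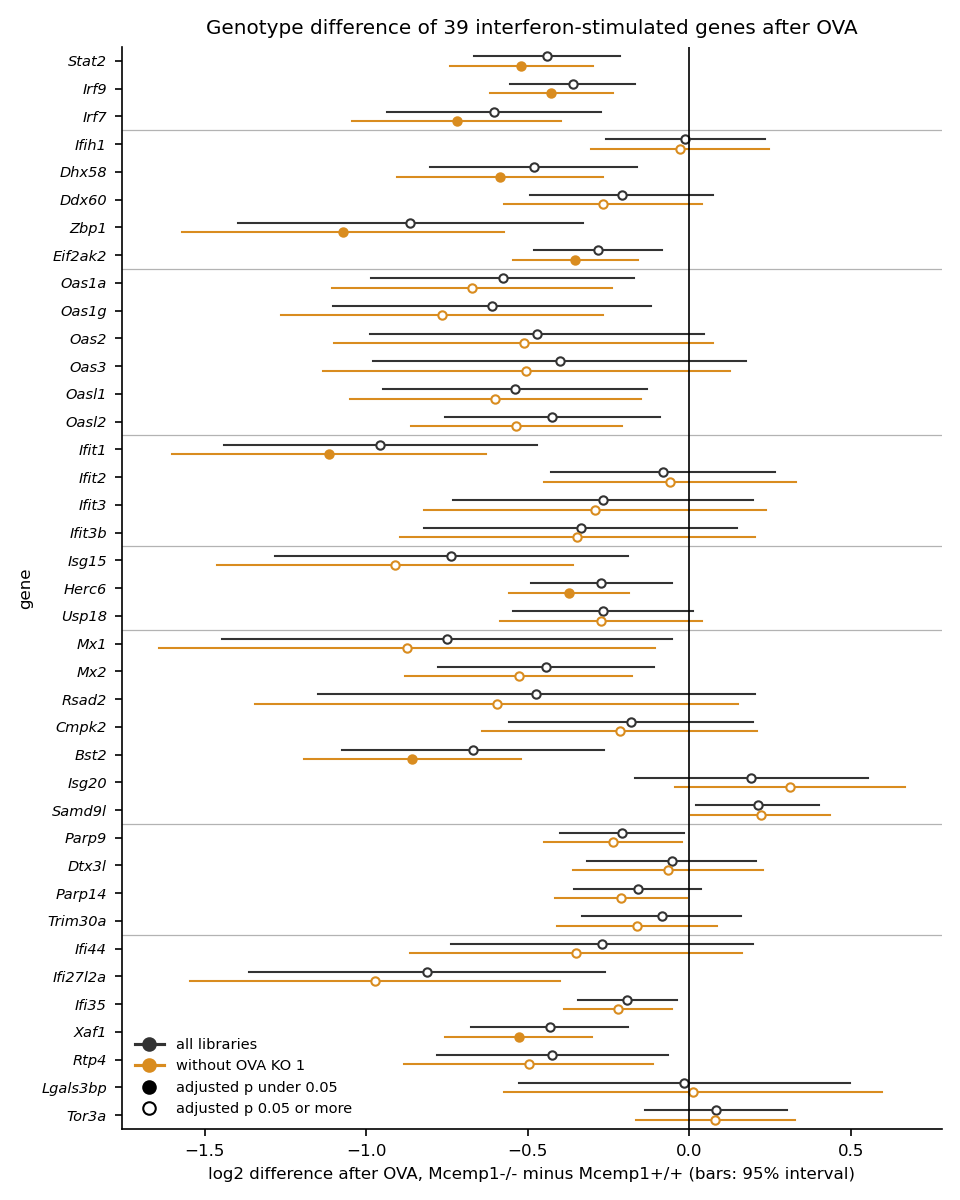
Log2 difference between OVA KO and OVA WT lungs for each member, with its 95% interval, using all libraries and again without OVA KO 1. With all libraries 36 of 39 points are below 0 (31 after scaling to equal totals) and none passed the test, and without OVA KO 1 10 members passed, with *Ifit1* and *Zbp1* the lowest.

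Under saline the log2 differences between genotypes were of both signs. Between SAL KO and SAL WT lungs 0 of 39 members passed with limma, where 0.00876% of all genes were higher and 0.0745% lower. An unadjusted p under 0.05 was found for 2 members, *Trim30a* and *Ddx60*, and the all-gene share at that level is not given here. The median log2 difference was 0.04, with a range of -0.39 to 0.61. Every SAL KO library was above every SAL WT library for *Ddx60*, *Zbp1*, *Herc6* and *Trim30a* (5.81% of all genes), and below for *Ifit1* and *Ifi35* (5.54% of all genes). *Ddx60* read 12.5, 11.5 and 12.4 in SAL KO 1 to 3, against 10.6, 9.24 and 7.59 in SAL WT 1 to 3, a log2 difference of 0.40 (95% interval 0.07 to 0.73). *Trim30a*, with values given above, had 0.38 (95% interval 0.10 to 0.66). The oligoadenylate synthetases had a median of 0.37, with 5 of 6 higher in SAL KO lungs, led by *Oas3* at 0.61 (95% interval -0.06 to 1.27), and *Ifit3b* and *Ifit3* had -0.39 and -0.33, none of which passed. Such saline differences enter the difference of responses above.

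Within each group the members tended to be high or low together. OVA WT 1 held the highest OVA WT value for 25 of 39 members (22.8% of all genes) and OVA WT 3 the lowest for 21 (24.9%). OVA KO 4 held the lowest OVA KO value for 27 members (25.8%), and in the saline groups SAL KO 2 and SAL WT 1 were the highest for 29 (34.2%) and 31 (34.4%). Mean log2 values of the 39 members were 4.15 to 4.62 in OVA KO, 4.52 to 5.04 in OVA WT, 4.07 to 4.21 in SAL KO and 3.98 to 4.30 in SAL WT lungs. OVA KO 4, at 4.15, was within the SAL KO range, and OVA KO 1, at 4.62, was above OVA WT 3. *Lgals3bp*, *Mx1*, *Oas2* and *Isg20* were among those that departed from this order, with their highest OVA KO value in OVA KO 3 and their highest OVA WT value in OVA WT 2, the libraries with high mucous secretory genes, of which OVA WT 2 also had the highest summed levels of B cell, T and NK cell and plasmacytoid dendritic cell markers of all libraries. The part of these markers in that order was not tested. Without both of these libraries 25 members rose and *Isg20* fell with OVA in WT lungs, where 1111 of all genes rose and 2328 fell. In that fit 0 members passed between genotypes after OVA, and 0 passed in KO lungs.

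Levels per kilobase of exon differed widely among members. In OVA WT lungs *Ifi27l2a* (147 normalised counts per kb) and *Bst2* (83.2) were the highest, followed by *Ifit3* (33.8) and *Lgals3bp* (30.1), whose product is a secreted glycoprotein. *Oas3* (0.868), *Mx2* (1.42), *Oasl1* (1.49), *Ddx60* (1.65) and *Oas1g* (1.79) were the lowest. Members at both ends of this order passed in WT lungs, among them *Bst2* and *Oas3*.

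The genes around the set on the interferon pathway moved in part. The interferon genes of types I and III were not analysed here. Of 6 receptor chains, *Ifngr2* rose by a log2 change of 0.43 (limma adjusted p = 0.021) and *Ifnlr1*, the type III receptor chain, fell by 0.56 (limma adjusted p = 0.049) in WT lungs. *Ifnar1* read 42.5 to 48.4 in OVA WT lungs, against 38.4 to 46.2 in SAL WT lungs, with overlap. Of 10 JAK-STAT genes 5 rose, among them the transcription factor gene *Irf1*, up by 0.71 on the log2 scale (SE 0.14, limma adjusted p = 0.0062), and the feedback inhibitor *Socs1*, up by 1.09 (SE 0.28, limma adjusted p = 0.0245).

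Of 20 genes of nucleic acid sensing and interferon induction 6 rose in WT lungs, including *Samhd1*, a dNTP hydrolase, at 0.52 (limma adjusted p = 0.0032). *Trex1*, the cytosolic DNA exonuclease, was lower after OVA in KO lungs: it read 5.97, 4.32, 3.53 and 3.75 in OVA KO 1 to 4, against 8.60, 7.71, 6.48 and 6.96 in OVA WT 1 to 4 (log2 difference -0.72, SE 0.14, limma adjusted p = 0.045). These groups did not overlap. Among further genes of ISG15 conjugation, *Uba7*, the E1 enzyme for ISG15, and *Ube2l6*, its E2, rose in WT lungs by 0.48 and 0.81. None of the receptor, JAK-STAT, sensing or conjugation genes passed in KO lungs with OVA, and *Trex1* was the only one that passed between genotypes after OVA.

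Genes linked mainly to interferon-γ, 16 of its targets and the interferon-γ gene itself, were compared with the members because the 2 responses overlap. In KO lungs 0 of the 39 members rose with OVA, against 1 of these 17 genes, with medians of 0.21 and 0.46. In WT lungs 22 of the 39 members rose, against all 17, with medians of 0.64 and 1.10. The gene that rose in KO lungs was *Cxcl9*, a T cell chemokine, which read 22.9, 8.86, 12.1 and 3.63 in OVA KO 1 to 4, against 0.398, 0.435 and 0.494 in SAL KO 1 to 3 (log2 change 3.46, SE 0.43, limma adjusted p = 0.0054). Every OVA KO library was above every SAL KO library. After OVA, 1 of the 17, *Cd274*, encoding PD-L1, was lower in KO than in WT lungs (log2 difference -0.90, SE 0.16, limma adjusted p = 0.036), and the median was -0.36 for the members and -0.69 for these genes. Per-library values of *Cd274* were 32.0, 21.6, 21.8 and 18.6 in OVA KO 1 to 4, against 45.6, 53.0, 32.4 and 44.9 in OVA WT 1 to 4, so OVA KO 1 came close to OVA WT 3 without reaching it.

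The most abundant of these genes were *Gbp2*, *Iigp1*, *Tap1* and *Irgm2*. In WT lungs *Iigp1*, an immunity-related GTPase, averaged 122 ± 45.5 in OVA WT and 35.9 ± 7.65 in SAL WT libraries (SD, n = 4 and 3; log2 change 1.69, limma adjusted p = 0.0020). *Gbp2*, *Tap1* and *Irgm2* rose by 1.18, 1.10 and 1.10. The response element core was in 14 of 28 members with a promoter (50%), and in 7 of the 13 of these 17 genes that had one (53.8%). Whether the 2 lists differ in their response was not tested.

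**Figure D5:**
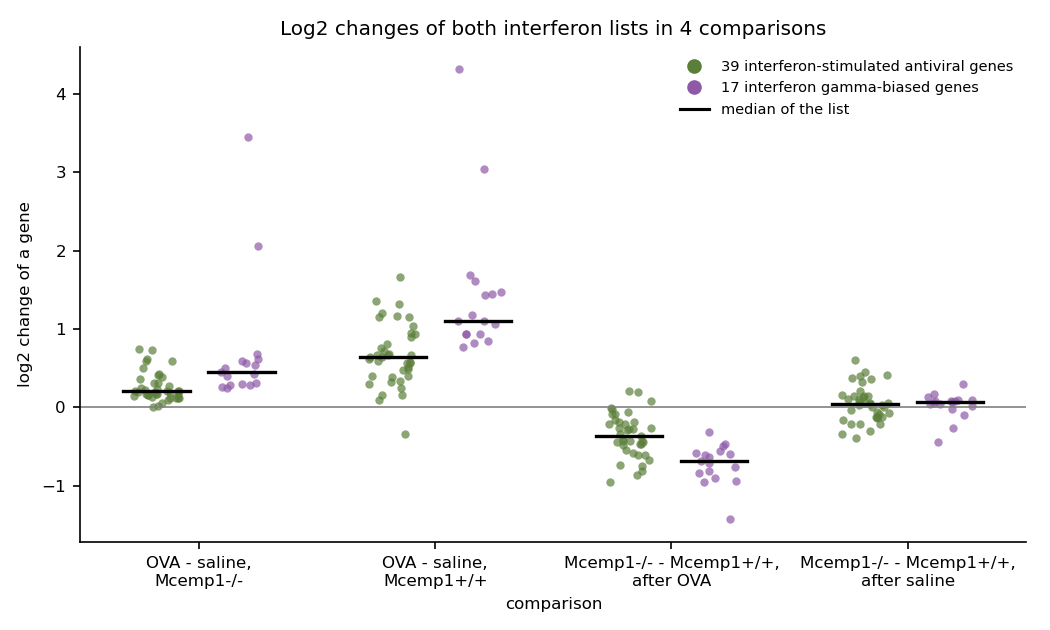
Log2 changes of the 39 members and of 17 interferon-γ-biased genes in 4 comparisons: OVA against saline in KO and WT lungs, and KO against WT lungs after OVA and after saline. Each point is a gene and the black line is the median. In KO lungs with OVA the medians are 0.21 for the members and 0.46 for the interferon-γ-biased genes, and in WT lungs 0.64 and 1.10.

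Markers of several cell types moved with the same comparisons. In bulk lung RNA, fewer cells of a type and less RNA per cell cannot be told apart. Of 12 monocyte and macrophage markers 9 rose in WT lungs with OVA (4.36% of all genes), among them *Cd68* and *Fcgr1*. The log2 changes of 2 others were negative, the lowest -0.30. In KO lungs 0 passed (0.21% of all genes rose), though all 12 log2 changes were positive. For 6 of these markers every OVA KO library was above every SAL KO library (5.75% of all genes). The mean log2 level of the list was 5.05 to 5.42 in OVA KO, 5.27 to 5.62 in OVA WT, 4.60 to 4.82 in SAL KO and 4.62 to 4.95 in SAL WT lungs, so that both OVA groups were above their saline groups. Its summed level, of which *Lyz2* alone made up 84.1% to 94.6%, was 4445 to 5469 in OVA KO, 2704 to 4124 in OVA WT, 3137 to 4685 in SAL KO and 3844 to 4387 in SAL WT lungs. Of the 8 markers of plasmacytoid dendritic cells, which are known as strong interferon producers, *Runx2* rose and *Cox6a2* fell in WT lungs. Their sums were 30.9 to 41.2 in OVA KO, 29.6 to 74.9 in OVA WT, 30.9 to 33.2 in SAL KO and 35.2 to 45.1 in SAL WT lungs. These sums rest on few genes. *Cox6a2* read 3.34 to 5.79 in OVA WT and 10.8 to 20.2 in SAL WT lungs, a fall shared with the heart muscle genes below. In OVA WT 2 *Ly6d* made up 37.3 of the 74.9. *Ccr9* (8.58) and *Pacsin1* (8.56) were also highest there, while *Siglech* (3.46) was below OVA WT 1 (4.51). Neutrophil markers passed in 0 of 8 cases, with sums of 278 to 363 in OVA KO, 47.9 to 196 in OVA WT, 173 to 350 in SAL KO and 65.8 to 157 in SAL WT lungs, so both KO groups were above their WT counterparts.

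Genes of heart muscle, which in mice also sheathes the pulmonary veins, fell in all 10 cases in WT lungs with OVA. Their sums were 132 to 449 in OVA KO, 53.9 to 155 in OVA WT, 330 to 657 in SAL KO and 745 to 1253 in SAL WT lungs. B cell, endothelial, alveolar epithelial, and T and NK cell markers passed in 0 cases in WT lungs. For 5 of the 8 T and NK cell markers every OVA WT library was above every SAL WT library (10.3% of all genes), and all 8 had positive log2 changes, with a median of 0.93. OVA WT 2 stood apart, with summed levels of 609 for B cell markers, against 81.8 to 195 in the other libraries, and of 212 for T and NK cell markers, against 32.6 to 86.3. In WT lungs ciliated cell and adipocyte markers fell in 3 of 8 and 3 of 7 cases. Of all these markers only *Lep*, an adipocyte gene, was at the lowest value of a column, in OVA KO 2 and OVA WT 3. The part of these cell type markers in the changes of the interferon-stimulated genes was not tested.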

How the data were processed

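Lung RNA from 14 mice was sequenced by the study after poly(A) selection. Per the labels, the authors used Partek software with STAR and mm10. The deposited values are a signal, called normalised counts by the authors. How they were normalised is not given in the sources used here. Of low values, 73.3% to 76.9% lay within 0.1 of a whole multiple of the lowest value, so whole reads could not be recovered and no count test was run. Column totals were 907121 to 1148437, and dividing them by the lowest value gave the estimated reads.

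A gene was kept when 3 or more libraries had 0.2 ppm of their column total or above (22828 of 24270). Values were tested as log2(value + 0.502), a pseudocount of 0.5 ppm, with limma 3.58.1 in R 4.3.3 (moderated linear models over all 4 groups, trend and robust options). Tests were 2-sided, with Benjamini-Hochberg adjustment over all genes within each of the 5 contrasts and a threshold of 0.05. Fold changes on this scale understate those of low genes. Nothing in the labels says how the mice were caged or processed together, so the p-values speak to the spread among these samples alone, part of which may be technical.

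The members and all gene lists were chosen with earlier results of these data known. Per-library values were given for the members past the threshold, up to 12 per contrast by size of change, and for the largest that did not pass in each role group. Of each pathway list up to 4 genes with the highest level could be named, and others (*Ifnar1*, *Cxcl9*, *Cd274*, *Trex1*, *Socs1*, *Ifnlr1*, *Uba7*, *Ube2l6*, *Cd68*, *Fcgr1*) were chosen after their values were seen. *Ddx60* under saline was named after its values were seen. Coordinates came from GENCODE M21 on GRCm38, which held 99.6% of the table's genes by identifier. Alternatives were other scalings, pseudocounts, filters and limma settings, a replicate block, and leaving out libraries. The fits were tested on simulated data.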

Additional observations from a re-analysis of the deposited data

Results flagged for a closer look

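In 2 of the groups of 4 libraries, 1 library stood far from the other 3 for a member. *Herc6* read 40.4 in OVA KO 1, and the other OVA KO libraries lay between 30.1 and 31.1. *Bst2* read 103 in OVA WT 1, and the other OVA WT libraries lay between 64.1 and 67.4. If genes were independent, about 1 in 20 groups would lie this far apart by chance, which is 3.9 of the 78 groups examined. The members tended to be high or low together in the same libraries, so this number is only a rough guide. Whether chance gave the 2 cases was not tested.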

How the results depend on the processing

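No called member changed direction under any alternative. In WT lungs, the number of members called with OVA ranged over 14 to 25 when 1 library was left out, with the lowest value, 14, without SAL WT 2, and the median log2 change moved to 0.41 with equal totals. *Stat2*, *Irf9*, *Irf7*, *Zbp1*, *Oas1a*, *Oas1g*, *Oasl2*, *Ifit1*, *Herc6*, *Trim30a* and *Xaf1* kept their calls under all alternatives. Library weights gave 2 members called with OVA in KO lungs (*Ifit3*, *Ifit3b*), where 212 of all genes rose, against 48 without weights. They gave 1 member called between genotypes after OVA (*Ifit1*). Between genotypes after OVA, leaving out 1 library gave 0 to 10 members. Same-numbered libraries of different groups had correlations of deviations of -0.319 to 0.387, the highest for OVA WT 1 with OVA KO 1. Differently numbered libraries were not compared, so whether replicate numbers mark samples handled together cannot be told. A replicate block called 2 members between genotypes after OVA (*Irf7*, *Ifi27l2a*). Over all genes, 2695 were called in WT lungs with OVA, 4807 with equal totals, 4701 with weights, and 1161, 1495, 1651 and 1692 without SAL WT 2, SAL WT 3, OVA WT 1 and SAL WT 1. Between genotypes after OVA, 89 were called, 1116 without OVA KO 1, 242 with weights, 214 with the replicate block and 17 when only the 2 groups were fitted. The cause of these shifts was not tested. With 3 or 4 libraries a group, the SE of a member's change was mostly 0.1 to 0.3, which limits what could pass.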
